A study of Homo sapiens with 6 samples.

Results

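The mitochondrial respiratory chain and ATP synthase are assembled from subunits encoded in the nucleus together with a smaller set encoded in mitochondrial DNA. The transcripts of the nuclear-encoded subunits were compared with and without dopamine in a human neuroblastoma line, SK-N-SH. Members were the rows of the deposited table typed as protein-coding whose symbol begins with NDUFA, NDUFB, NDUFC, NDUFS or NDUFV and a digit, with UQCR, with COX and a digit from 4 to 8, or with ATP5, or is SDHA, SDHB, SDHC or SDHD. These were 90 rows for 86 symbols of 26789 rows: 38 symbols of complex I, 4 of complex II, 8 of complex III, 16 of complex IV and 20 of complex V. The symbol rule also takes in genes of similar name, such as COX6A1P2 and ATP5EP2, which have the names of processed copies, and ATP5S and ATP5SL, which are not regarded as structural subunits today. The mitochondrially encoded subunits were not analysed here.

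All cells carried the wild type genotype and were grown for 24 h before treatment, after which 3 samples received medium alone (control) and 3 received dopamine in medium, each for 6 h. The dose is printed in the labels as 40 M, which seems to have lost a prefix and is not read further here, and the design text of the series speaks of SH-SY5Y, a subline of SK-N-SH, where all 6 samples are labelled SK-N-SH. The replicates are numbered 1 to 3, with no word on whether each was a culture of its own. The p-values speak only for the spread of these samples, which could be technical. Recovered totals ran from 19402000 to 24233000 fragments per library, which makes 1 FPKM (fragments per kilobase of transcript, scaled to library size) of a 1 kb transcript worth 19.4 to 24.2 fragments. All 7 adrenergic and all 7 mesenchymal neuroblastoma markers with a row were expressed, among them HAND2 (128 FPKM in control cells) and VIM (903 FPKM). The summed adrenergic markers ran from 295.3 to 341.0 FPKM in control and from 287.6 to 336.9 FPKM with dopamine, and the mesenchymal markers from 1181 to 1328 and from 1183 to 1230 FPKM. PTPRC and CD68, which mark blood cells, were at or near 0 in every library (at most 0.0604 FPKM together). HMOX1, the heme oxygenase gene, stood at 33.0 ± 4.74 FPKM in control and 429 ± 39.5 FPKM with dopamine (SD, n = 3), and its adjusted p was 6.06e-07 (limma, Benjamini-Hochberg).

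Complex I (NADH dehydrogenase) and complex II (succinate dehydrogenase) pass electrons to coenzyme Q, complex III (the cytochrome bc1 complex) passes them on to cytochrome c, and complex IV (cytochrome c oxidase) to oxygen. Complexes I, III and IV pump protons across the inner mitochondrial membrane, and complex V (ATP synthase) uses the gradient to make ATP. Neurons depend strongly on this pathway. Dopamine and its oxidation products are known to impair complex I, and genes of the chain are classical targets of the nuclear respiratory factors NRF1 and GABP (NRF2, an ETS factor).

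Promoters from RefSeq (GRCh38.p14) could be matched to 65 of the 86 members. In windows from 250 bases before to 50 bases after the start, searched on both strands, the NRF1 core, GCGC and GCGC with any 2 bases between, was present in 17 of 65 member promoters (26.2%), against 8.8% of all 27305 promoters and 13.8% of those of 11923 protein-coding genes in the expression table. The ETS motif CCGGAAG was present in 19 (29.2%), against 10.7% and 16.3%. By complex, the NRF1 core was found in 7 of 31 promoters of complex I, 2 of 3 of complex II, 4 of 7 of complex III, 1 of 12 of complex IV and 3 of 12 of complex V. Each motif was counted separately, also where matches could share a base, and these are matches of letters and not shown binding sites. The 250 bases before the start are printed for SDHD, the member with the largest difference between the groups, and for UQCRC1 and UQCRC2, partner subunits of complex III whose mean levels differed in opposite directions. SDHD lies on the plus strand (chr11:112086623-112086872), UQCRC1 on the minus strand (chr3:48609647-48609896) and UQCRC2 on the plus strand (chr16:21953111-21953360). Capitals mark matches to the NRF1 core and, in SDHD, the ETS motif on the opposite strand.
SDHD: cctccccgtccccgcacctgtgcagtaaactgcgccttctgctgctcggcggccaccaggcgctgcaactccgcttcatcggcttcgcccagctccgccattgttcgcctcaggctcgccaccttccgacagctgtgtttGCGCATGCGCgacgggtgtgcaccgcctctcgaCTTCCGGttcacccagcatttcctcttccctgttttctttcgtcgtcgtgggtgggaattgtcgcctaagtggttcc
UQCRC1: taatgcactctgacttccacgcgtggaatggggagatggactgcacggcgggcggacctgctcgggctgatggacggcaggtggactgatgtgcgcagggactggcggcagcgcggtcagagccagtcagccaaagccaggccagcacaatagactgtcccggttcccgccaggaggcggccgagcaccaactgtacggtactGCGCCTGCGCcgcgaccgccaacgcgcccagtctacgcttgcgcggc
UQCRC2: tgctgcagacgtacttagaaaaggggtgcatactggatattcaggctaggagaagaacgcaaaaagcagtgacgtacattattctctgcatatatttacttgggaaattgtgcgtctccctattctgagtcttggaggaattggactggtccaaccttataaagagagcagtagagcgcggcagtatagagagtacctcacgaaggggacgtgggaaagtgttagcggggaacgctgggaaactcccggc
The SDHD sequence holds an NRF1 core and, nearer to the start, an ETS match. UQCRC1 holds an NRF1 core, and neither motif was present in the stretch of UQCRC2, which says only that these letters are not in it.

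With dopamine, no respiratory chain transcript passed the test, and most differed little between the groups. Of the 86 members, 75 had a mean of at least 1 FPKM over the 6 samples and were tested, and 0 of 75 passed an adjusted p of 0.05 (limma on log2(FPKM + 0.5), two-sided, Benjamini-Hochberg over all genes), where 0.102% of all 11791 tested genes did, 12 in number (0.0848% higher, 0.017% lower). Without control replicate 1, 5 members passed (18.5% of all genes), and with sample quality weights 8 did (22.9% of all genes). The lowest adjusted p of a member was 0.11 (limma). At an unadjusted p under 0.05 lay 15 of 75 members (20%), 12 higher and 3 lower, against 32.5% of all tested genes (24.4% higher, 8.05% lower), and 7 without control replicate 3. In 18 members (24%) the 3 dopamine values all lay on the same side of the 3 control values, 13 higher and 5 lower, against 38.4% of all genes (24.4% higher, 14.1% lower).

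The size of the differences was small. The median log2 fold change, dopamine over control, was 0.03 for the members and 0.08 for all tested genes, and the middle 50% of members lay between -0.07 and 0.13, compared with -0.11 to 0.31 for all genes. A log2 fold change beyond 0.25 in either direction was seen in 10 members (13.3%), as against 38.5% of all genes. The extremes were SDHD at 0.55 and ATP5D, the delta subunit of ATP synthase, at -0.33. With a median SE of 0.10, the 95% interval lay inside a 1.5-fold change for 69 of 75 members and reached 1.5-fold for 6. Values called corrected were computed after removal of each library's trend in GC content and transcript length. Of 75 members 31 then turned direction, 27 from higher to lower and 4 from lower to higher. GC content and length were those of the longest transcript (13566 bases for SDHC, 5575 for UQCRB), which need not be the one expressed. Corrected log2 fold changes of the members rose with GC content (Pearson 0.33), while those of all genes did not (-0.01). The reversals are limited by both points. In bulk RNA, fewer cells expressing a gene and less RNA per cell cannot be told apart. The plot of log2 fold changes by complex gives each tested member with its interval.

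**Figure D1:**
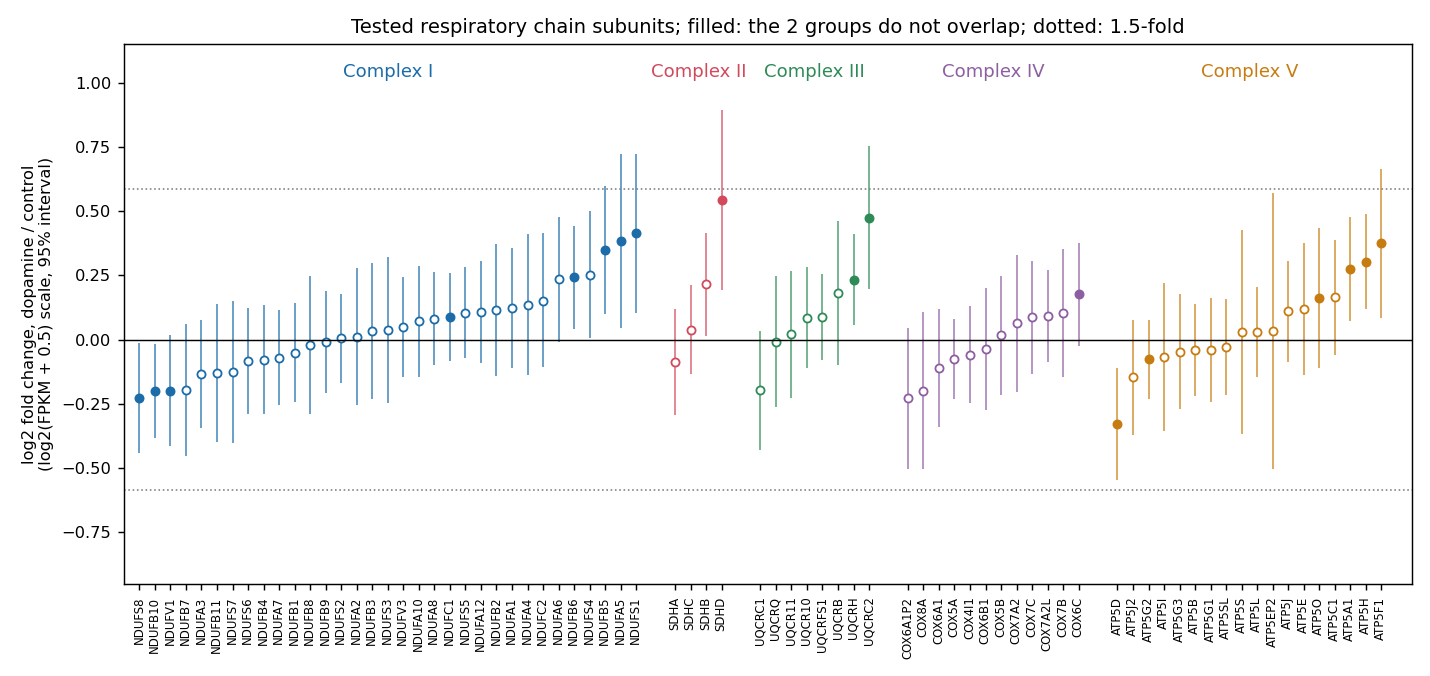
Log2 fold change (dopamine over control, log2(FPKM + 0.5) scale) of the 75 tested members, sorted within each complex, with 95% intervals from limma. Filled points mark the 18 members whose groups do not overlap, and dotted lines mark 1.5-fold; SDHD and UQCRC2 are the highest and ATP5D the lowest.

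Complex I showed small differences in both directions. Of its 38 members 33 were tested, and the median log2 fold change was 0.04. At an unadjusted p under 0.05 (limma) lay 5 with a higher and 2 with a lower mean, against 24.4% and 8.05% of all tested genes. NDUFS1 (ENSG00000023228.9, hg19 chromosome 2, 206979541 to 207024327), the largest core subunit, which carries iron-sulfur clusters, stood at 3.73, 3.27 and 2.79 FPKM in the control libraries and at 4.14, 4.14 and 5.25 FPKM in the dopamine libraries (here and throughout in the order of replicates 1, 2 and 3). All dopamine values lay above all control values, with the widest gap between the libraries numbered 3. Its log2 fold change was 0.41 (SE 0.14, limma adjusted p = 0.113). NDUFB5 (ENSG00000136521.8), an accessory subunit of the membrane arm, stood at 7.11, 6.68 and 5.49 FPKM in control and 7.87, 8.39 and 8.54 FPKM with dopamine. The groups did not overlap, and the log2 fold change was 0.35 (SE 0.11, limma adjusted p = 0.111), which turned to -0.04 corrected. The NDUFS1 value was 0.10 corrected.

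NDUFS8 (ENSG00000110717.6), a core iron-sulfur subunit of the peripheral arm, had the opposite direction. It stood at 21.2, 23.7 and 21.0 FPKM in control and at 19.5, 20.02 and 16.6 FPKM with dopamine, so that every dopamine value lay below every control value (log2 fold change -0.23, SE 0.10, limma adjusted p = 0.141). The 6 tested core subunits had a median of -0.06 and the 27 tested accessory subunits one of 0.07. Corrected, these medians were -0.011 and -0.045, so their order turned. Median GC content was 56.8% for the core and 47.4% for the accessory subunits. NDUFA5, NDUFB6 and NDUFC1, all accessory, also lay wholly above control, by 0.38, 0.24 and 0.09, and all 3 turned when corrected, to -0.11, -0.01 and -0.05. In turn NDUFV1, the core subunit that oxidises NADH, and NDUFB10 lay wholly below control, both with a log2 fold change of -0.20 (-0.08 and -0.09 corrected). NDUFS5, an accessory subunit, had the highest level of all members. It stood at 275, 308 and 291 FPKM in control and at 299, 323 and 317 FPKM with dopamine, with overlapping groups and a log2 fold change of 0.10 (SE 0.08, limma adjusted p = 0.359).

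Complex II is the only one of the 5 complexes with no mitochondrially encoded subunit. Its 4 transcripts differed among themselves, with a median log2 fold change of 0.13. SDHA and SDHB form the catalytic part, a flavoprotein and an iron-sulfur protein, and SDHC and SDHD anchor it in the membrane. SDHD (ENSG00000204370.4, hg19 chromosome 11, 111957497 to 111990353) stood at 15.3, 14.3 and 9.69 FPKM in control and at 17.2, 19.4 and 20.6 FPKM with dopamine. The groups did not overlap, and control replicate 3 was the lowest. The log2 fold change was 0.55 (SE 0.16, 95% interval 0.20 to 0.90, limma adjusted p = 0.11).

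SDHB (ENSG00000117118.5) stood at 24.9, 28.7 and 25.1 FPKM in control and 28.4, 32.97 and 30.2 FPKM with dopamine, a log2 fold change of 0.22 (SE 0.09, limma adjusted p = 0.14), with control replicate 2 above dopamine replicate 1. SDHA (ENSG00000073578.12) had 11.2, 10.4 and 12.04 FPKM in control and 10.1, 11.3 and 10.3 FPKM with dopamine. SDHC (ENSG00000143252.10), the most abundant of the 4, had 58.4, 64.9 and 59.9 FPKM in control and 62.9, 66.0 and 59.3 FPKM with dopamine. Both genes overlapped between the groups, with log2 fold changes of -0.09 for SDHA and 0.04 for SDHC. The ratio of the SDHD to the SDHA level was 1.36, 1.38 and 0.805 in control and 1.71, 1.72 and 1.99 with dopamine, with no overlap between the groups. SDHD and SDHA had the highest and the lowest log2 fold change of the complex, so this gap partly follows from the choice of genes. The SDHC to SDHA ratio overlapped, at 5.2, 6.23 and 4.98 in control and 6.24, 5.87 and 5.76 with dopamine.

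The SDHD value belongs to the symbol and not to 1 gene model alone. SDHD, NDUFA7, NDUFB8 and UQCR11 each occupy 2 rows with different gene identifiers, and in each case the values of the rows stood in a constant ratio in all 6 libraries (1.7865 to 1.7866 for SDHD). All 57 symbols in the table on 2 rows with values over 0.2 FPKM did so within 0.5%. Each was counted once, on the row whose identifier carries the symbol in GENCODE v29. For SDHD, 47.7% of the coding bases are shared on the same strand with AP002884.3, the gene model of the other row, and reads of both models cannot be told apart.

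In complex III, a pair of partner subunits had opposite directions. UQCRC1 and UQCRC2 encode the paired core proteins, which are present in equal number in the complex. UQCRC2 (ENSG00000140740.6, hg19 chromosome 16, 21963981 to 21994981) stood at 10.6, 9.93 and 8.08 FPKM in control and at 12.3, 12.7 and 15.3 FPKM with dopamine. All dopamine values lay above control (log2 fold change 0.48, SE 0.12, 95% interval 0.20 to 0.75, limma adjusted p = 0.11). UQCRC1 (ENSG00000010256.6, hg19 chromosome 3, 48636435 to 48648409) stood at 55.03, 62.9 and 57.3 FPKM in control and at 53.8, 55.8 and 43.7 FPKM with dopamine, overlapping between the groups (log2 fold change -0.20, SE 0.10, limma adjusted p = 0.205). The UQCRC1 to UQCRC2 ratio was 5.18, 6.34 and 7.09 in control and 4.38, 4.38 and 2.86 with dopamine, with no overlap and with the extremes in the libraries numbered 3. UQCRC1 had the largest fall and UQCRC2 the largest rise of the complex, so this gap partly follows from the choice of genes.

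UQCRH (ENSG00000173660.7), the hinge protein that helps dock cytochrome c1 to cytochrome c, was the most abundant transcript of complex III on the rows counted here. Its mean was 97.7 FPKM, and the row of UQCR11 that was not counted had a mean of 119 FPKM. UQCRH itself was higher with dopamine. It stood at 86.6, 94.6 and 88.0 FPKM in control libraries and at 97.8, 109 and 110 FPKM in dopamine libraries. The groups did not overlap (log2 fold change 0.23, SE 0.08, limma adjusted p = 0.114). The other tested members of the complex, among them the Rieske iron-sulfur protein gene UQCRFS1 (0.09, corrected -0.15), overlapped between the groups, and the median over all 8 was 0.09.

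Complex IV showed few differences as deposited. None of its 12 tested members had an unadjusted p under 0.05 (limma), against 32.5% of all genes, and the median was -0.01. Corrected, 2 of 12 did, both lower, against 17% of all genes, which is near the same share. The corrected median was -0.16, where the other complexes had corrected medians from -0.07 (complex V) to -0.03 (complex II). COX6C (ENSG00000164919.6), a small membrane subunit, stood at 10.4, 10.7 and 10.0 FPKM in control and at 10.8, 12.04 and 12.6 FPKM with dopamine, the only member of the complex whose groups did not overlap (log2 fold change 0.18, SE 0.09, limma adjusted p = 0.19; corrected -0.04). COX6B1 (ENSG00000126267.4), the most abundant, stood at 164, 198 and 180 FPKM in control and at 181, 193 and 154 FPKM with dopamine, which overlapped widely. COX6A1P2 (ENSG00000226976.1) had 4.39, 5.13 and 5.84 FPKM in control and 4.06, 4.61 and 4.18 FPKM with dopamine, with a log2 fold change of -0.23 (SE 0.12, limma adjusted p = 0.213), and since it is a near copy of COX6A1 its reads may be split between the 2 genes.

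Several complex IV subunits have isoforms used in different tissues or at low oxygen, and in the pairs with both forms in the table the widespread form was the higher one in both groups. COX4I1 stood at 60.5, 65.2 and 62.7 FPKM in control and 62.5, 64.3 and 54.4 FPKM with dopamine, whereas its low-oxygen counterpart COX4I2 reached at most 0.0744 FPKM. COX7A2 ran from 45.2 to 58.1 FPKM over the 6 samples and its muscle counterpart COX7A1 was listed at 0 in 5 of 6 samples and at 0.0438 FPKM in the other. COX6B1 and COX8A had mean levels of 178 and 45.9 FPKM, against 0.0664 FPKM for COX6B2 and 0.029 FPKM for COX8C, which are best known from testis. In GENCODE v29 all coding bases of COX6B2 (100%) lie in exons of another gene model on the same strand, AC020922.1, so its low level carries a limit that COX8C does not, and the part of this overlap was not tested. COX6A1 and COX7B, at 13.7 and 24.3 FPKM, were not set against COX6A2 and COX7B2, which were not analysed here.

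The same held for a pair that the symbol rule lists under complex I. NDUFA4, listed here under complex I by its name and regarded today as a subunit of complex IV, stood at 30.9, 37.6 and 29.3 FPKM in control and 34.997, 41.2 and 31.4 FPKM with dopamine. NDUFA4L2, its low-oxygen counterpart, had a mean of 0.127 FPKM. COX4I2 and NDUFA4L2 thus stood near 0 in both groups.

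Complex V combined members on both sides of control. ATP5H (ENSG00000167863.7), subunit d of the peripheral stalk, stood at 25.5, 28.6 and 26.6 FPKM in control and at 34.5, 34.6 and 30.8 FPKM with dopamine. The groups did not overlap, and the log2 fold change was 0.30 (SE 0.08, limma adjusted p = 0.11). ATP5D (ENSG00000099624.3), part of the central stalk, stood at 39.5, 42.8 and 36.7 FPKM in control and at 32.4, 34.3 and 27.9 FPKM with dopamine. Every dopamine value lay below every control value, and this was the lowest log2 fold change of all members (-0.33, SE 0.10, limma adjusted p = 0.11). The ATP5H to ATP5D ratio was 0.645, 0.668 and 0.725 in control and 1.07, 1.01 and 1.10 with dopamine. Both genes were named for the smallest p of the complex and lay wholly on opposite sides of control, so separate ratios were set by that choice. Their GC contents were 44.9 and 63.9%, and their log2 fold changes were 0.07 and -0.16 corrected.

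ATP5F1 (ENSG00000116459.6), subunit b of the peripheral stalk, stood at 18.3, 19.1 and 14.4 FPKM in control and at 19.2, 24.1 and 24.2 FPKM with dopamine. The groups were narrowly apart (log2 fold change 0.38, SE 0.13, limma adjusted p = 0.116), and the corrected value was 0.08. Of the catalytic head, the alpha subunit gene ATP5A1 also lay above control (log2 fold change 0.27, limma adjusted p = 0.113; corrected 0.05), while the beta subunit gene ATP5B stood at 272, 275 and 269 FPKM in control and 271, 281 and 244 FPKM with dopamine (log2 fold change -0.04). The ATP5B to ATP5A1 ratio was 6.64, 7.98 and 7.87 in control and 6.22, 6.64 and 5.23 with dopamine, so the groups met at 6.64. The 3 genes for the identical mature c subunit, ATP5G1, ATP5G2 and ATP5G3, had mean levels of 32.3, 55.9 and 20.1 FPKM. Their log2 fold changes were -0.04, -0.08 and -0.05 (-0.19, -0.21 and -0.40 corrected), and ATP5G2 was the only one of them whose groups did not overlap, by a narrow gap (54.99 FPKM at least in control, 54.97 FPKM at most with dopamine).

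**Figure D2:**
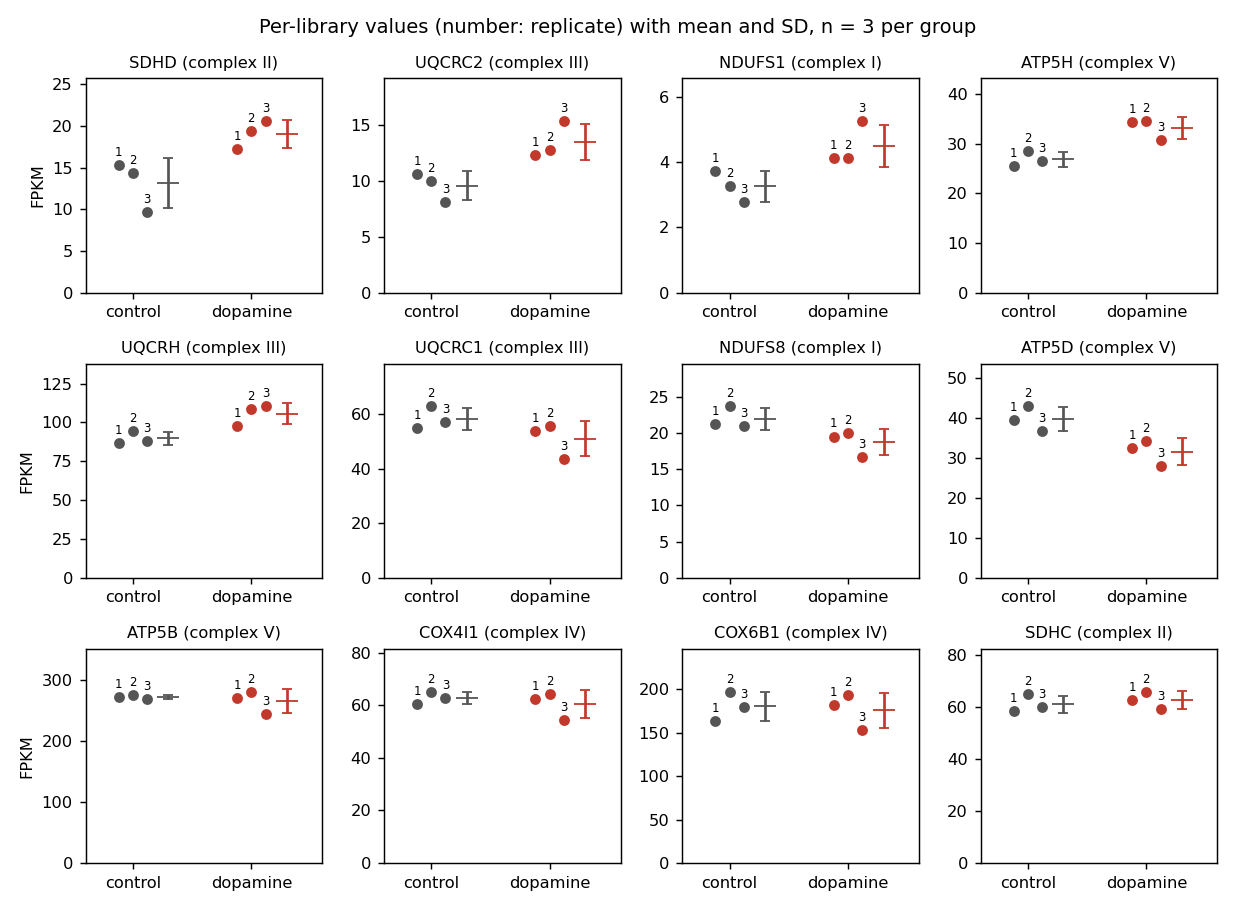
FPKM of 12 members in each of the 6 libraries (points, numbered by replicate) with the mean and SD of each group (n = 3). SDHD, UQCRC2, NDUFS1, ATP5H and UQCRH lie above control in all dopamine libraries and NDUFS8 and ATP5D below it, while ATP5B, COX4I1, COX6B1 and SDHC overlap between the groups.

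The sums over the members of complexes I, III, IV and V overlapped between the groups, and those of complex II did not. The sum over all members was 3176 ± 186 FPKM in control and 3188 ± 193 FPKM with dopamine (SD, n = 3). Complex I had 1279 ± 76.6 and 1261 ± 67.7 FPKM, complex III 393.7 ± 26.8 and 414.1 ± 26.7 FPKM, complex IV 591.6 ± 43.9 and 584.6 ± 55.6 FPKM, and complex V 800.2 ± 33.9 and 806.1 ± 41.1 FPKM. Complex II was at 109.8, 118.4 and 106.8 FPKM in control and 118.6, 129.7 and 120.4 FPKM with dopamine, so the highest control library lay just below the lowest dopamine library. SDHD was the only one of its 4 members whose own groups did not overlap, and its level depends on the row kept. Of all tested genes 38.4% did not overlap. These sums weigh abundant subunits most and were not tested.

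**Figure D3:**
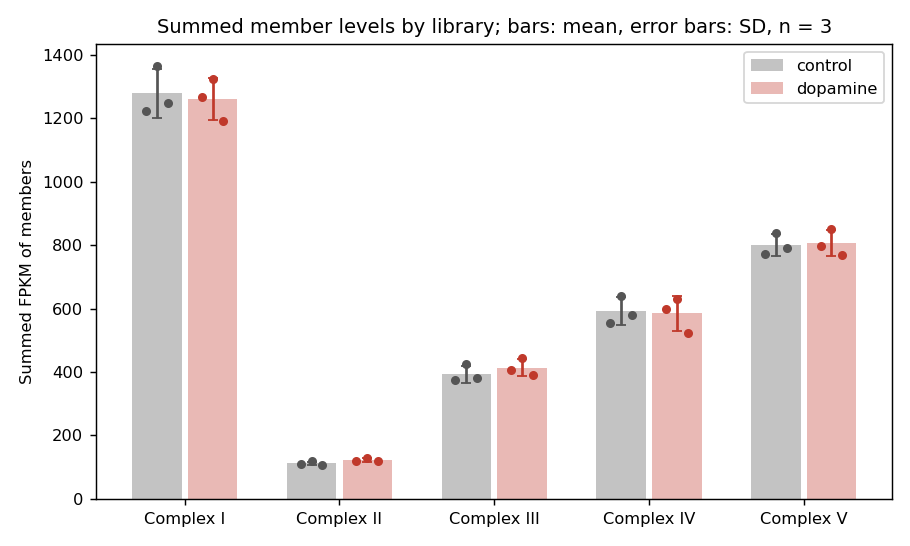
Summed FPKM of the members of each complex, with points for the 6 libraries, bars for the group mean and error bars for the SD (n = 3). The libraries of the 2 groups overlap in complexes I, III, IV and V, and in complex II the means are 111.6 and 122.9 FPKM, with the groups only narrowly apart.

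Levels differed far more between members than between groups. On the per-length FPKM scale the tested members had a median level of 28.7 FPKM, against 5.71 FPKM for all tested genes, and ran from ATP5S at 1.72 to NDUFS5 at 302 FPKM. The 11 members below 1 FPKM, which were not tested, were the tissue isoforms COX4I2, COX6B2, COX7A1, COX8C and NDUFA4L2, the copy or fusion models ATP5L2 and ATP5J2-PTCD1, and the 4 subunits NDUFA9, NDUFA11, NDUFA13 and NDUFV2. The last 4 are regular subunits of complex I, so levels of 0.517, 0.351, 0.372 and 0.038 FPKM stand out among partners at a median of 20.3 FPKM. In GENCODE v29, 67.9% of the coding bases of NDUFA9, 36.9% of NDUFA11, 55.2% of NDUFA13 and 84.7% of NDUFV2 lie in exons of another gene model on the same strand. The 16 members with such shared coding bases had a median of 4.61 FPKM with 6 under 1 FPKM, and the 68 without had a median of 26.5 FPKM with 5 under 1 FPKM; 2 members have no coding bases in that release. NDUFA7, NDUFB8, SDHD and UQCR11, whose shared model carries the same symbol in the deposited table, stood at 37.1, 4.93, 16.1 and 55.5 FPKM. Members whose main sharing model has no row there differed in level. ATP5L, COX8A and COX6A1 (56.5, 55.1 and 53.5% of coding bases shared) stood at 40.3, 45.9 and 13.7 FPKM. ATP5O and NDUFC2 (62.6 and 76.9%) stood at 2.02 and 4.29 FPKM. The sources used here do not give how reads in shared exons were counted, and the part of overlapping gene models in these levels was not tested.

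The same 4 low subunits gave values in every library that stayed below the limit for testing. NDUFA9 stood at 0.452, 0.400 and 0.406 FPKM in control and 0.630, 0.558 and 0.654 FPKM with dopamine. NDUFA11 stood at 0.428, 0.350 and 0.470 FPKM in control and 0.259, 0.298 and 0.300 FPKM with dopamine. NDUFA13 stood at 0.434, 0.407 and 0.404 FPKM in control and 0.303, 0.339 and 0.349 FPKM with dopamine. None of these 3 genes overlapped between the groups, NDUFA9 being higher and NDUFA11 and NDUFA13 lower with dopamine, while NDUFV2 overlapped. Of all tested genes 38.4% did not overlap, a share that does not cover genes under 1 FPKM. NDUFA9 has 43.6% GC, NDUFA11 62.7% and NDUFA13 62.0%, so their directions are those of the GC trend described below. No test was made at these levels.

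**Figure D4:**
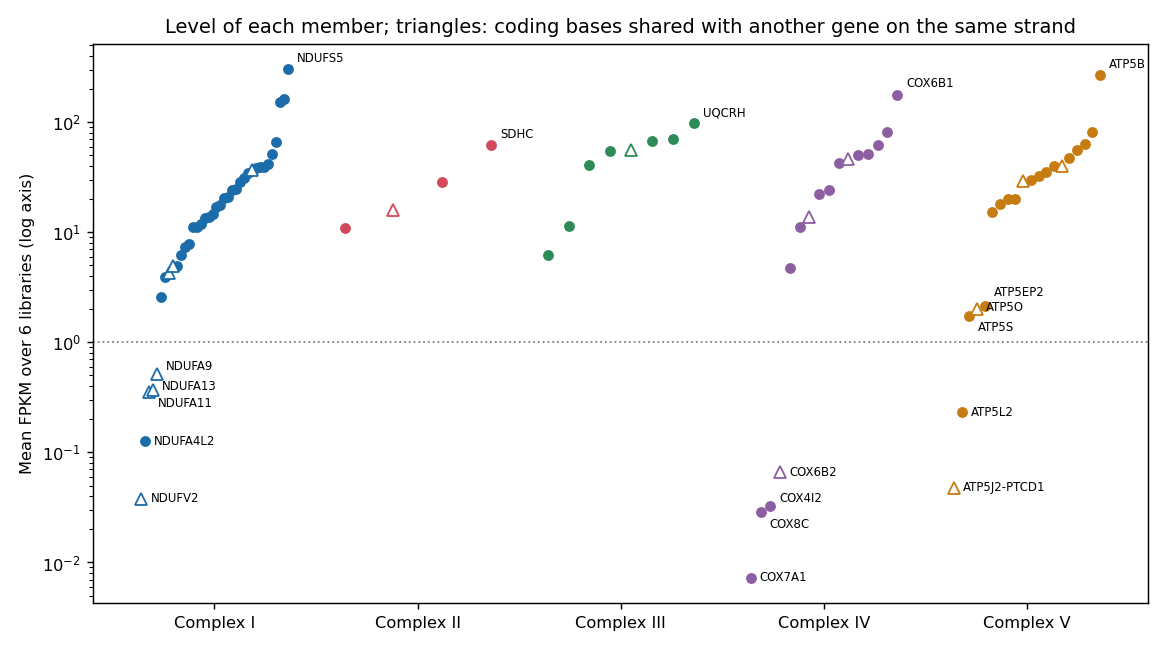
Mean FPKM over the 6 libraries of each of the 86 members on a log axis, by complex; the dotted line marks the limit for testing, 1 FPKM. Open triangles mark the 16 members whose coding bases are shared with another gene model on the same strand, and NDUFV2, NDUFA11, NDUFA13 and NDUFA9 are among those below the line.

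The direction of the members went with their base composition. Over the 75 tested members the correlation between log2 fold change and GC content of the longest transcript was -0.66 (Pearson) and -0.63 (Spearman), and over 11579 genes it was -0.75 and -0.78. These points are genes measured in the same libraries and are not independent. Of 27 members under 45% GC, 23 had a higher mean with dopamine (median log2 fold change 0.12, against 0.36 for all genes of that GC content). Of 32 members between 45 and 55% GC, 21 did (0.06, against 0.07), and of 16 members over 55% GC, 1 did (-0.17, against -0.14). SDHD (41.0% GC), UQCRC2 (45.5%) and NDUFS1 (42.1%) are on the low side, and UQCRC1 (59.5%), NDUFS8 (57.9%) and ATP5D (63.9%) on the high side.

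Libraries differed in the same property. The slope of the log2 level on GC content over all genes, relative to the mean of the libraries, was 0.02, 0.11 and 0.22 per 10 percentage points in the control libraries and -0.03, -0.06 and -0.26 in the dopamine libraries, so the groups did not overlap and the libraries numbered 3 were the extremes. This trend and the treatment cannot be told apart in these samples. With each library's trend in GC content and length removed, the median of the members was -0.06 and that of all genes 0.00, and 0 of 75 members passed the adjusted threshold (0.242% of all genes). At an unadjusted p under 0.05 lay 12 of 75 members, 3 higher and 9 lower, against 17% of all genes, which is near the same share. The share of all genes was not split by direction after the correction, so the members' split cannot be set against it. SDHD then had a log2 fold change of 0.27 (limma adjusted p = 0.269), UQCRC2 one of 0.26 (0.199) and UQCRH one of 0.18 (0.227). ATP5H came to 0.07, ATP5D to -0.16, NDUFS8 to -0.14 and UQCRC1 to -0.08, while UQCRB turned from 0.18 to -0.24. For SDHD the corrected value also depended on the row, since the longest transcript of the other gene model has 47.1% GC and gave 0.44.

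**Figure D5:**
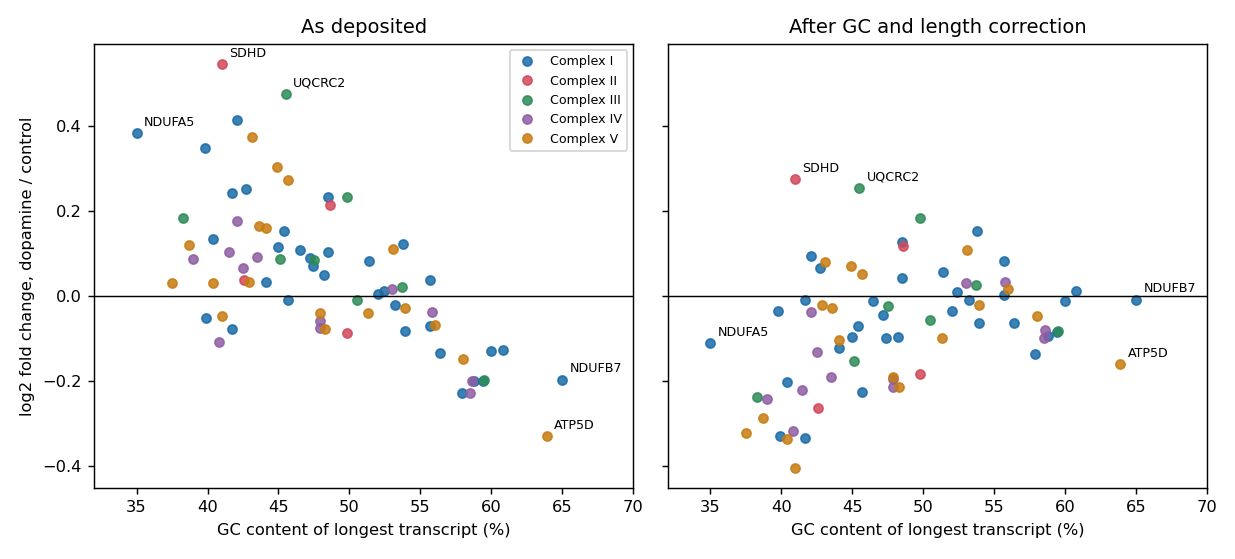
Log2 fold change (dopamine over control) of the 75 tested members against the GC content of the longest transcript in percent, as deposited and after removal of each library's trend in GC content and length. The left panel falls from SDHD, UQCRC2 and NDUFA5 to ATP5D (Pearson -0.66), and the right panel lies lower at low GC content (Pearson 0.33).

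Genes that build or supply the chain were described with the same fit, and 0 members of any of these lists passed the adjusted threshold (0.102% of all genes). For the unadjusted counts below, 24.4% of all tested genes had p under 0.05 (limma) with a higher mean and 8.05% with a lower mean. Of the assembly factors, 6 of 15 for complex I, 0 of 4 for complex II, 1 of 6 for complex III, 8 of 23 for complex IV and 1 of 3 for complex V had an unadjusted p under 0.05 with a higher mean, and 1 of the complex IV list with a lower mean. Their medians were 0.18, 0.05, -0.01, 0.11 and 0.24, and after the GC and length correction 0.03, -0.04, -0.11, -0.03 and -0.01. TIMMDC1, a complex I assembly factor, stood at 30.8 ± 0.576 FPKM in control and 38.1 ± 1.27 FPKM with dopamine (SD, n = 3), a log2 fold change of 0.30 that was 0.03 corrected. SCO1, which delivers copper to complex IV, stood at 12.6 ± 0.843 and 15.8 ± 1.14 FPKM, which is 0.31 on the log2 scale (0.07 corrected).

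Coenzyme Q synthesis had 4 of 13 genes with an unadjusted p under 0.05, all higher, against 24.4% of all genes. Its median was 0.16 (0.09 corrected). COQ5, a methyltransferase of that pathway, stood at 7.01 ± 0.17 FPKM in control and 9.04 ± 0.171 FPKM with dopamine (SD, n = 3), a log2 fold change of 0.35 (0.20 corrected). The regulators of mitochondrial gene expression had 4 of 15, all higher, with a median of 0.22 (0.06 corrected). GABPA, whose ETS motif was searched above, stood at 1.84 ± 0.618 FPKM in control and 3.41 ± 0.944 FPKM with dopamine. YY1 stood at 8.38 ± 0.705 and 11.3 ± 0.993 FPKM (SD, n = 3 for both genes). Their log2 fold changes were 0.74 and 0.41 (limma adjusted p = 0.11 for both), and 0.28 and 0.27 corrected. TFB1M and TFB2M were the others of these 4, with 0.42 and 0.38 (0.195 and 0.083 corrected), and TFB1M had the smallest p of the list. NRF1, whose core was also searched, overlapped between the groups. Its means were 3.44 FPKM in control and 3.46 FPKM with dopamine (log2 scale 0.01, corrected -0.122). GABPB1 overlapped as well, and its 0.27 turned to -0.136 corrected.

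The tricarboxylic acid cycle, which feeds electrons to the chain, had 5 of 18 genes higher and 2 lower at that level. Over all genes these shares were 24.4% and 8.05%, and the median of the cycle genes was 0.09 (-0.04 corrected). Protein import had 6 higher and 1 lower of 20 (median 0.08, corrected -0.05), mitochondrial chaperones and proteases 5 and 2 of 13 (-0.04, corrected 0.02), mitochondrial antioxidants 3 and 1 of 8 (0.00, corrected -0.04), and the mitochondrial ribosome 22 and 6 of 72 (0.04, corrected -0.06). Of 6 genes of the chain whose symbols the rule does not take, CYCS, the gene for cytochrome c, stood at 13.1 ± 2.26 FPKM in control and 18.2 ± 1.92 FPKM with dopamine, and CYC1, cytochrome c1 of complex III, at 80.2 ± 4.49 and 67.3 ± 5.15 FPKM (SD, n = 3). Neither group pair overlapped, and the directions were opposite, with log2 fold changes of 0.47 and -0.25 (0.14 and -0.07 corrected). The others, ATPIF1, USMG5, C14orf2 and NDUFAB1, overlapped between the groups, with 0.11, 0.02, 0.01 and 0.09. Of all tested genes 38.4% did not overlap.

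Markers that could accompany a shift in cell state or RNA quality were read in the same way. At an unadjusted p under 0.05, 0 of 7 adrenergic markers had a higher and 1 a lower mean (median 0.05, corrected 0.06), and 2 and 0 of 7 mesenchymal markers did (0.09, corrected -0.02). Among all tested genes 24.4% were higher and 8.05% lower at that level. Of 5 epithelial markers 3 were tested and 2 were lower (median -0.37, corrected -0.31), with sums from 140.1 to 174.5 FPKM in control and from 105.4 to 121.2 FPKM with dopamine. EPCAM and CDH1, which define epithelium, were near 0 (0.169 and 0.0484 FPKM in control samples), and KRT18 carried most of the sum. The nuclear-retained RNAs MALAT1, NEAT1 and KCNQ1OT1 summed to 1.82 to 2.39 FPKM in control and 2.38 to 4.57 FPKM with dopamine, with 1 of 2 tested higher and a median of 0.47 (0.15 corrected). The part of these markers in the member values was not tested.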

How the data were processed

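RNA of 6 SK-N-SH samples, 3 per group by title, was extracted with TRIzol and made into stranded, ribosomal RNA-depleted libraries of total RNA, per the labels' protocols. The deposited table, made by the authors, holds FPKM per gene for 26789 genes. Tools named without a role in the submitters' processing notes are STAR 2.7.1a, DESeq2 1.40.2, HTSeq 0.11.2 and FastQC 0.11.9, and the build is hg19. The way FPKM was made, the annotation and the strand setting cannot be stated, since the sources used here do not give them.

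Depth was recovered from 2797 pseudogenes with a span of 150 to 1500 bases, whose FPKM moves in steps of 1 fragment. Of their low values 92.6 to 93.8% came out whole within 0.03. Genes with a mean FPKM of at least 1 (11791) were compared on log2(FPKM + 0.5), which understates fold changes of low genes, with limma 3.58.1 in R 4.3.3 (two-sided, with a trend in the prior variance and no replicate block; Benjamini-Hochberg threshold 0.05). Tables were handled with pandas 2.3.3 and numpy 2.4.6. The fit was tested on simulated data. GC content and length of the longest transcript came from GENCODE v29 for 11579 genes. The correction was a loess fit (span 0.5) per library, and since the trend differed between the groups it can remove part of a real difference.

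The members and all lists were chosen with earlier results of these data known: assembly factors of complexes I to V, coenzyme Q synthesis, the tricarboxylic acid cycle, regulators of mitochondrial gene expression, protein import, chaperones and proteases, antioxidants, the mitochondrial ribosome, and adrenergic, mesenchymal, epithelial, blood and nuclear-retained RNA markers. Lists were described by counts and medians. Members named with all 6 values were, per complex, the most abundant, the 2 with the smallest p and the extremes of log2 fold change, with SDHA to SDHD and isoform pairs. NDUFA5, NDUFA9, NDUFA11, NDUFB6, NDUFB10, NDUFC1, NDUFV1, ATP5A1 and UQCRFS1 were added after their values were seen, as were the other low subunits. Alternatives covered pseudocounts, filters, scalings, trend, weights, a block, the correction and leaving out each library.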

Additional observations from a re-analysis of the deposited data

How the results depend on the processing

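The number of members called and the direction of many members depended on the settings. No member passed the adjusted threshold (limma, Benjamini-Hochberg) under 17 of 19 alternatives. With sample quality weights, which gave dopamine replicate 3 the lowest weight, 8 did (22.9% of all genes): NDUFS1, NDUFB5, NDUFS8, SDHD, UQCRC2, ATP5H, ATP5A1 and ATP5D. Leaving out 1 library gave 0 to 5, the 5 without control replicate 1 (18.5% of all genes): NDUFS1, NDUFB5, SDHD, UQCRC2 and ATP5A1. The unadjusted count of 15 ran from 6 without both replicates 3, an alternative chosen after seeing the data, and 7 without control replicate 3 to 18 with weights. The count over all genes, 12, was 6 with no filter, 27 after quantile normalization, 5 with no trend, 2706 with weights, 3 with a replicate block, 8 with block and correction, 28 after the GC and length correction, 7 without both replicates 3, and 3 to 2177 with 1 library left out. The cause was not tested.

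The members' median of 0.034 became -0.05 after median-of-ratios scaling (all genes 0.00), -0.064 after the correction with or without the replicate block, and 0.001 to 0.099 with 1 library left out. After the correction 31 of 75 members turned direction, NDUFA5 (0.383 to -0.11) from the highest value among them. Of those recomputed under each alternative, NDUFB5 came to -0.036, COX6B1 to 0.033, COX6C to -0.037, COX7A2 to -0.131, COX7B to -0.22, NDUFA4 to -0.203 and SDHC to -0.264, the same with the block. Median-of-ratios scaling gave COX7A2 -0.026 and SDHC -0.052, quantile normalization ATP5B 0.018 and COX6B1 0.039, and weights ATP5B 0.001 and COX7B -0.011. Without control replicate 2, ATP5G1 was at 0.003, ATP5G3 at 0.023, COX6B1 at 0.03 and COX7A2 at 0.18. Without dopamine replicate 2 COX7A2 was at -0.006, ATP5B at -0.082, ATP5G1 at -0.102, ATP5G3 at -0.111, COX4I1 at -0.106 and COX6B1 at -0.107. Without dopamine replicate 3, ATP5B was at 0.019, ATP5G1 at 0.034, ATP5G3 at 0.028, COX4I1 at 0.014 and COX6B1 at 0.058. Without both replicates 3, ATP5B was at 0.011, ATP5G1 at 0.001, COX4I1 at 0.013 and COX6B1 at 0.057. The cause was not tested.

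Same-numbered libraries correlated at -0.203, 0.282 and -0.367 in their deviations from the group means. These deviations also carry each library's GC trend, so they cannot show whether the numbers pair the samples. The replicate block left 0 members called (13 unadjusted). Only number 2 correlated best with its own number. At 1 FPKM, 19.4 to 24.2 fragments per kilobase limit the precision of low members such as NDUFV2.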
